A study of Homo sapiens with 4 samples.

Results

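The Toll-like receptors TLR1 to TLR10 were examined in THP1 cells, a human monoblastic AML cell line, after transfection of miRNA mimics. Members were all non-control probes to which the array design gives 1 of these 10 gene names, which made 12 probes of 34127 and 10 gene names of 27193. THP1 cells received 30 nM of miR-511 mimic, which supplies mature miR-511-5p, or of negative control #1 mimic, once, and RNA was harvested on day 2. In each of 2 independent experiments, 1 array was hybridized per treatment with single-dye labeled RNA, so that there were 4 arrays, 2 per treatment. All cells were of that line, which carries MLL-AF9, all received a synthetic double-stranded RNA, and all were kept in medium with little serum. Untransfected cells were not analysed here, so all values describe transfected cells, and the number of arrays limits the precision of every comparison.

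Toll-like receptors sense conserved molecules of microbes. Their leucine-rich outer part binds the ligand, and their inner TIR domain recruits adaptors such as MYD88, from where the signal runs through IRAK kinases and TRAF6 to NF-kB and inflammatory cytokines. TLR1, TLR2, TLR4, TLR5, TLR6 and TLR10 act at the cell surface, whereas TLR3, TLR7, TLR8 and TLR9 sense nucleic acids in endosomes. On monocytes, TLR2 and TLR4 are the best known members, as receptors for bacterial lipoproteins and for lipopolysaccharide.

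The miRNA supplied by the mimic is shown first, with its seed (bases 2 to 8) in capitals, since the treatments differ in it. The sequence is that of RefSeq (GRCh38.p14, chr10:17845122-17845142, plus strand).
hsa-miR-511-5p: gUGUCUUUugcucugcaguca
A site for the seed would read AAAGACA in a transcript, read on the strand of the transcript only. None of the 12 receptor probes held these letters, as against 331 of 34127 probes on the array (0.97%). At that share, finding none among so few probes says little. This describes the probes' 60 bases only, and the rest of the transcripts was not searched for sites.

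The transcripts were measured with probes of 60 bases. Shown here are 1 probe of the receptor with the largest difference between the experiments (TLR9), 1 of the 2 probes of each receptor with several probes (TLR4 and TLR5), and that of a receptor not detected (TLR3). No part is marked by capitals.
TLR3 A_23_P29922 (hg19, chr4:187005890-187005949, plus strand): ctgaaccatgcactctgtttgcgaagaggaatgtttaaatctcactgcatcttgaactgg
TLR4 A_24_P69538 (hg19, chr9:120476856-120476915, plus strand): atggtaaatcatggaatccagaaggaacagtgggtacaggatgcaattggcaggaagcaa
TLR5 A_23_P85903 (hg19, chr1:223284067-223284126, minus strand): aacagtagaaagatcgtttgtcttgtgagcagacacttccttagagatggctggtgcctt
TLR9 A_33_P3380807 (hg19, chr3:52255525-52255584, minus strand): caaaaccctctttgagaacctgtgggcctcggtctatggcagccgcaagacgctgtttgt
Between receptor probes of different genes, the longest stretch shared was 9 bases, between TLR7 and TLR10. Only probes were compared with each other, and no probe was set against the transcript of another receptor. TLR1 and TLR2 were printed in 10 spots each and the other 10 probes in 1 spot each.

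Transcripts of 6 of the 10 receptors were well above background on all 4 arrays, namely TLR1, TLR2, TLR4, TLR5 (by probe A_33_P3263423 only), TLR6 and TLR9. Of the 6 surface receptors these were 5, and of the 4 endosomal receptors only TLR9. TLR3, TLR7, TLR8 and TLR10 were well above background on 0 of 4 arrays. By probes, 7 of 12 were well above background on all 4 arrays, beside 63.4% of all probes, and 5 of 12 on none, beside 28.8% of all probes. The lowest scanner intensity of a detected receptor probe was 35.4 (TLR6) and the highest of an undetected one was 4.93 (TLR5 A_23_P85903). The latter was on the control array of experiment 1, at a log2 value of 2.09, where the lowest value well above background was 2.99. This grouping of the 12 probes did not change with treatment or experiment.

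**Figure D1:**
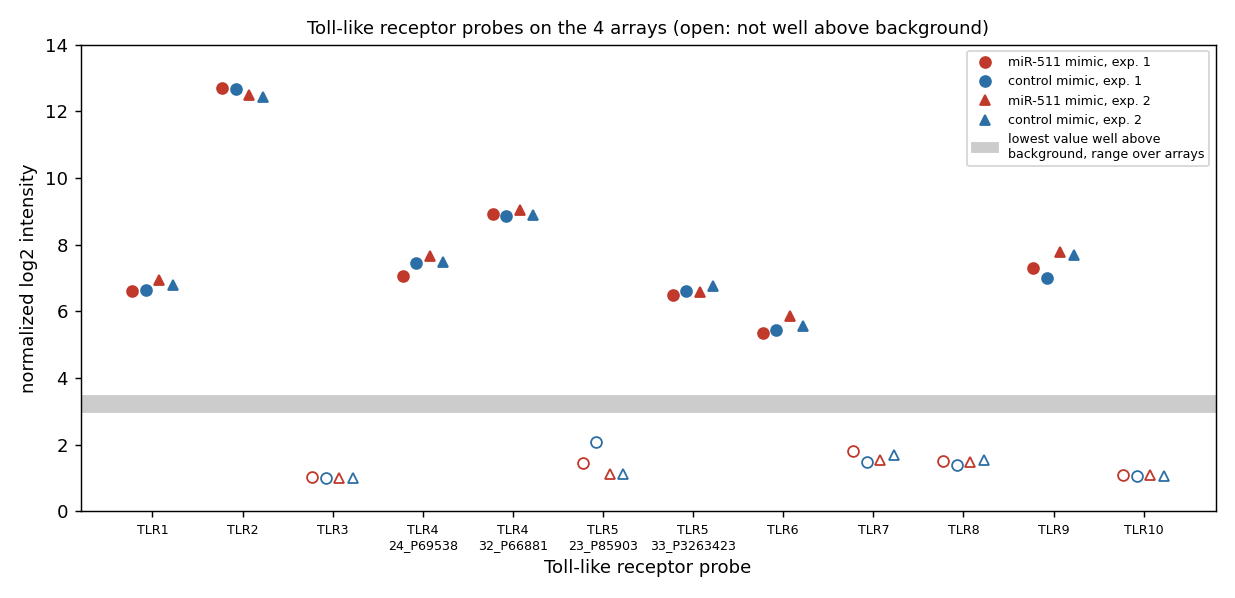
Normalized log2 intensity of the 12 Toll-like receptor probes on the 4 arrays, in red for miR-511 mimic and blue for the control mimic, as circles for experiment 1 and triangles for experiment 2. Open symbols are not well above background. The grey band spans the lowest value that was well above background on each array, from 2.99 to 3.44. TLR1, TLR2, TLR6, TLR9, both TLR4 probes and TLR5 A_33_P3263423 lie above it on every array, and heights of different probes cannot be set against each other.

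The arrays were checked against marker genes. Of 13 genes of monocytic and monoblastic cells, 11 were matched to a probe by name, and 10 of these were well above background on all 4 arrays, among them AZU1 at log2 values from 16.63 to 16.83 and CD33 from 13.66 to 13.79. The exception, MEIS1, was detected by 1 of its 2 probes, on the 2 arrays of experiment 1. Of genes that mark other blood cells, MS4A1 of B cells, CD3G of T cells and CLEC4C of plasmacytoid dendritic cells did not reach this level on any array. Others were above it on all 4 arrays, with 4 of 5 for B cells, 2 of 5 for T cells, 2 of 3 for plasmacytoid dendritic cells and 3 of 4 for erythroid cells. No tested marker probe passed an unadjusted p of 0.05 between the treatments in limma, beside 2.20% of all 22638 tested probes. At that share, a count of 0 among so few probes says little about the markers. In bulk RNA, fewer cells with a transcript and less transcript per cell cannot be told apart.

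Between miR-511 and the control mimic, none of the 7 detected receptor probes passed the unadjusted threshold of 0.05 in the moderated test of limma, beside 2.20% of the 22638 probes tested (498). No probe of the array passed Benjamini-Hochberg adjustment, and the adjusted p of every receptor probe was 1.00. With the experiment number as a block, none of the 7 receptor probes passed either, and the count over all probes was 894. Log2 differences (miR-511 mimic minus control mimic) of the receptors had a median size of 0.10, and that of all tested probes was 0.079. In 1 experiment they lay between 0.013 and 0.40 in size. For 4 of 7 receptor probes the direction was the same in both experiments, beside 51.0% of all tested probes. For 2 of 7 the treatments did not overlap, beside 25.7%. Both shares are read as descriptions.

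TLR2 forms heterodimers with TLR1 and TLR6 and senses bacterial lipoproteins. Its probe (chr4:154626406-154626465 of hg19, plus strand) had normalized log2 values of 12.69 with miR-511 and 12.66 with the control mimic in experiment 1, and of 12.48 and 12.44 in experiment 2. Its values were thus closer within an experiment than between experiments. The log2 difference between treatments was 0.034 in experiment 1 and 0.046 in experiment 2, and together 0.040 (standard error 0.14, adjusted p = 1.00 in limma). Without a block, the 95% confidence interval, from -0.34 to 0.42, leaves room for a ratio of miR-511 to control mimic from 0.790 to 1.34. The interval of the log2 difference was narrower, from -0.21 to 0.29, with the experiment number as a block.

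TLR1, which pairs with TLR2 for triacylated lipoproteins, was measured on chr4:38798013-38798072 (minus strand). It had log2 values of 6.61 with miR-511 and 6.62 with the control mimic in experiment 1 and of 6.93 and 6.78 in experiment 2. Both arrays of experiment 2 lay above both of experiment 1, the opposite order to that of TLR2. The treatments differed by -0.013 and 0.15 in the 2 experiments, in opposite directions. Over both, the log2 difference was 0.067 (95% confidence interval -0.35 to 0.48, or -0.22 to 0.36 with the experiment number as a block).

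TLR6, which pairs with TLR2 for diacylated lipoproteins, was measured on chr4:38828533-38828592 (minus strand). Its log2 values were 5.36 with miR-511 and 5.44 with the control mimic in experiment 1 and 5.84 and 5.56 in experiment 2. The array with miR-511 mimic was thus the lower one in experiment 1 and the higher one in experiment 2. The log2 difference between treatments was -0.080 in experiment 1 and 0.28 in experiment 2. Together it was 0.10 (95% confidence interval -0.43 to 0.64, or -0.32 to 0.52 with the experiment number as a block). TLR10, TLR1 and TLR6 are neighbours, and their probes span 54.0 kb of chromosome 4 (hg19). TLR1 and TLR6 were detected on every array, and TLR10, the least understood human member, on none. The scanner intensity of TLR10 was from 1.90 to 2.30, a surrogate value that the software sets for spots not above their local background.

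For TLR1 and TLR2, the 10 spots per array gave the spread within an array. The SD over the TLR1 spots was 0.16 and 0.073 on the arrays with miR-511 and control mimic of experiment 1, and 0.071 and 0.13 in experiment 2. In the same order, the TLR2 spots had an SD of 0.17, 0.11, 0.038 and 0.083. The spots of the TLR2 probe ran from 12.27 to 12.84 with miR-511 mimic in experiment 1, with a median of 12.73, and from 12.37 to 12.77 with the control mimic, with a median of 12.69. In experiment 2 they ran from 12.42 to 12.54 and from 12.29 to 12.54. The means of the TLR2 spots differed between treatments by 0.034 in experiment 1 and by 0.046 in experiment 2, and in both experiments the ranges of spots overlapped. For TLR1, the means differed by 0.15 in experiment 2, and the ranges of spots overlapped as well, from 6.80 to 7.03 with miR-511 mimic and from 6.58 to 6.96 with the control mimic. Spots on an array share 1 RNA sample and are no replicates of the treatment.

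**Figure D2:**
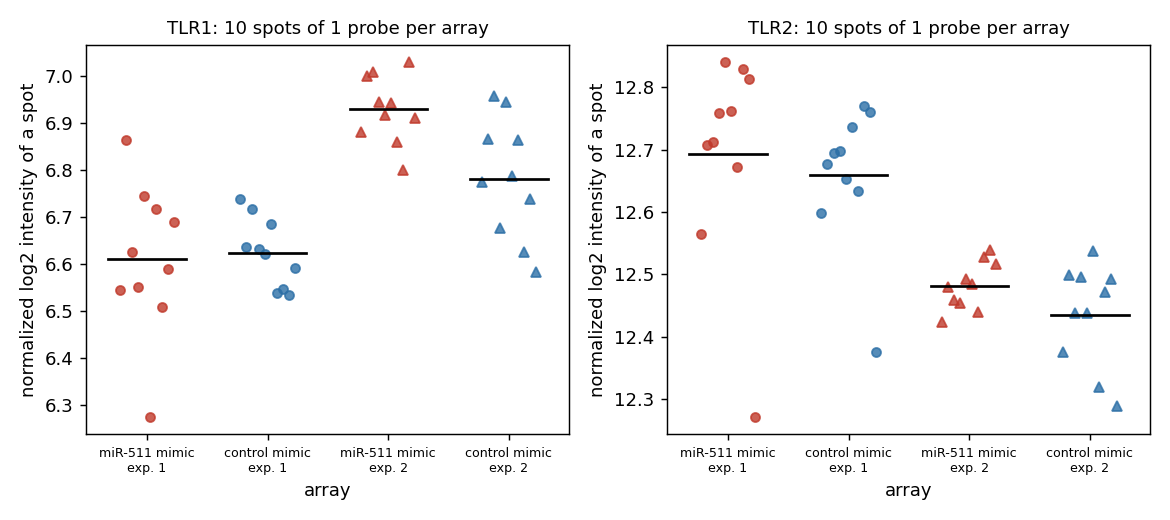
Normalized log2 intensity of each of the 10 spots of the TLR1 probe (left) and the TLR2 probe (right) on the 4 arrays, with the mean per array as a black line, in red for miR-511 mimic and blue for the control mimic. The means of TLR1 are higher in experiment 2 (6.93 and 6.78) than in experiment 1 (6.61 and 6.62), and those of TLR2 are lower. The vertical axes do not start at 0.

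TLR4, the receptor for bacterial lipopolysaccharide, was measured by 2 probes whose target sites start 2380 bases apart in the transcript. The probe A_24_P69538, printed above, had log2 values of 7.05 with miR-511 and 7.45 with the control mimic in experiment 1 and of 7.67 and 7.48 in experiment 2. The array with miR-511 mimic of experiment 1 was the lowest, and that of experiment 2 the highest. The mean was 7.36 ± 0.43 (SD, n = 2) with miR-511 and 7.46 ± 0.022 (SD, n = 2) with the control mimic. The second probe, A_32_P66881 (chr9:120479236-120479295, plus strand), had values of 8.92 and 8.85 in experiment 1 and of 9.04 and 8.89 in experiment 2. With this probe, both arrays with miR-511 mimic lay above both with the control mimic.

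The 2 TLR4 probes therefore disagreed in direction in experiment 1, where the log2 difference between treatments was -0.40 with A_24_P69538 and 0.069 with A_32_P66881. They went the same way in experiment 2, with 0.19 and 0.15. Within an array, A_32_P66881 lay above A_24_P69538 by 1.37 to 1.41 on 3 arrays and by 1.86 on that with miR-511 mimic of experiment 1, so that the probes changed unequally on this array. Over both experiments, A_24_P69538 had a log2 difference of -0.10 (standard error 0.23, 95% confidence interval -0.74 to 0.53) and A_32_P66881 of 0.11 (standard error 0.099, 95% confidence interval -0.16 to 0.38). As ratios, the intervals run from 0.600 to 1.44 and from 0.895 to 1.30. The experiment number as a block gave log2 intervals from -0.70 to 0.49 and from -0.15 to 0.37. The value of A_24_P69538 rests on single arrays. Without miR-511 mimic replicate 2 it was -0.41 and passed the unadjusted threshold, and without miR-511 mimic replicate 1 it was 0.20.

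TLR5, the receptor for flagellin, was likewise measured by 2 probes, and here they disagreed in detection. The probe A_33_P3263423 (chr1:223305827-223305886, minus strand) starts at base 567 of the transcript and was well above background on all 4 arrays. The probe A_23_P85903, printed above, starts at base 2888, or 21760 bases away in the genome, and was well above background on none. Its scanner intensity was 2.71 with miR-511 and 4.93 with the control mimic in experiment 1, where it passed the weaker criterion of a signal significantly over the local background, and 2.34 and 2.20 in experiment 2, where it was set to the surrogate. A transcript that holds the site of 1 probe only cannot be told apart here from a probe that binds poorly. Binding of A_33_P3263423 to transcripts of other genes, the other receptors included, was not tested, so the detection of TLR5 rests on this probe alone. The detected probe had log2 values of 6.48 with miR-511 and 6.61 with the control mimic in experiment 1 and of 6.59 and 6.76 in experiment 2. It was lower with miR-511 mimic in both experiments, by log2 differences of -0.13 and -0.17, and the treatments did not overlap. The difference over both, -0.15 (standard error 0.11, 95% confidence interval -0.45 to 0.15, adjusted p = 1.00 in limma), did not pass the threshold. In the fit with the experiment number as a block, the interval was -0.40 to 0.099. A_33_P3263423 was the only detected receptor probe that was lower with miR-511 mimic in both experiments.

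TLR9, which senses unmethylated CpG DNA, was the only endosomal receptor detected. Its log2 values were 7.31 with miR-511 and 6.98 with the control mimic in experiment 1 and 7.78 and 7.68 in experiment 2. It was higher with miR-511 mimic in each experiment, by 0.32 and 0.097, but the array with miR-511 mimic of experiment 1 lay below the control array of experiment 2. The mean was 7.54 ± 0.33 (SD, n = 2) with miR-511 and 7.33 ± 0.49 (SD, n = 2) with the control mimic, and the log2 difference of 0.21 had a standard error of 0.31 and a 95% confidence interval from -0.63 to 1.05. For a ratio this interval runs from 0.648 to 2.06. With the experiment number as a block, the interval of the log2 difference was narrower, from -0.11 to 0.53, and TLR9 did not pass there either.

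The other endosomal receptors were TLR3, a sensor of double-stranded RNA, and TLR7 and TLR8, sensors of single-stranded RNA. TLR3 had scanner intensities of 2.08 with miR-511 and 1.80 with the control mimic in experiment 1 and of 2.18 and 2.01 in experiment 2. TLR7 had 3.35, 2.68, 2.98 and 3.17 in the same order, and TLR8 had 2.81, 2.48, 2.87 and 2.92. All these were surrogate values on all 4 arrays. They have no order and give no fold, and transcripts too rare for these probes are not excluded by them.

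**Figure D3:**
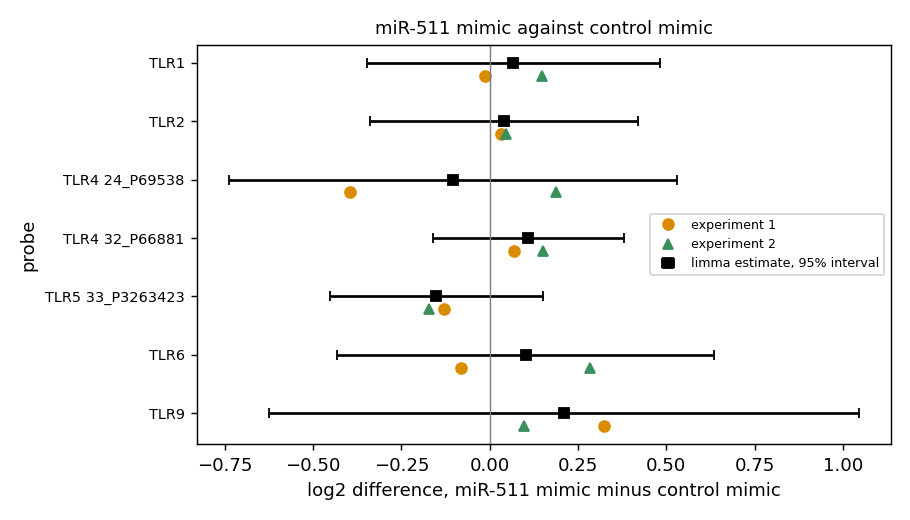
Log2 difference between miR-511 and control mimic for the 7 receptor probes above background. Orange circles give experiment 1, green triangles experiment 2, and black squares the limma estimate over both, without a block, with its 95% confidence interval. Every interval includes 0, and TLR1, TLR4 A_24_P69538 and TLR6 lie on opposite sides of 0 in the 2 experiments.

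Of the 7 receptor probes, 3 passed the unadjusted threshold between experiment 2 and experiment 1, with TLR1 and TLR9 higher and TLR2 lower in experiment 2. This stands beside 14.1% of the 22596 probes tested in that comparison (3191). For 5 of 7 the experiments did not overlap, beside 49.4% of all tested probes. The median size of the log2 difference between experiments was 0.24 for the receptors and 0.12 for all tested probes. For TLR5 A_33_P3263423 and TLR4 A_32_P66881, the difference between experiments was smaller than that between treatments. No probe passed Benjamini-Hochberg adjustment, with a smallest adjusted p of 0.0632 over the array and of 0.265 among the receptors in limma.

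TLR9 had the largest of these differences. It was higher in experiment 2 by a log2 difference of 0.58 (standard error 0.14, 95% confidence interval 0.20 to 0.96, unadjusted p = 0.0130 and adjusted p = 0.265 in limma). The rise was 0.47 with miR-511 and 0.70 with the control mimic. TLR2 was lower in experiment 2 by -0.22 (standard error 0.069, unadjusted p = 0.0343, adjusted p = 0.326 in limma), with -0.21 for miR-511 and -0.22 for the control mimic. TLR1 was higher by 0.24 (standard error 0.084, unadjusted p = 0.0478, adjusted p = 0.351 in limma), with 0.32 and 0.16. With treatment as a block, TLR9 alone passed the unadjusted threshold. TLR9 also failed without miR-511 mimic replicate 2, TLR1 passed only without control mimic replicate 2, and TLR2 passed in none of the fits with 1 array left out.

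TLR6 (0.30), TLR4 A_24_P69538 (0.32), TLR5 A_33_P3263423 (0.13) and TLR4 A_32_P66881 (0.080) were also higher in experiment 2 and did not pass with all 4 arrays. These values moved with single arrays. TLR6 ran from 0.16 to 0.45 with an array left out and passed the unadjusted threshold without control mimic replicate 2. TLR4 A_24_P69538 ran from 0.12 to 0.52 and passed without control mimic replicate 1. TLR4 A_32_P66881 ran from 0.0045 to 0.16 and TLR5 A_33_P3263423 from 0.048 to 0.22, and neither passed in any of these fits. Of the 7 receptor probes, TLR2 alone had a lower mean there. What differed between the experiments other than their number is not given in the sources used here, and their part in the differences was not tested.

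**Figure D4:**
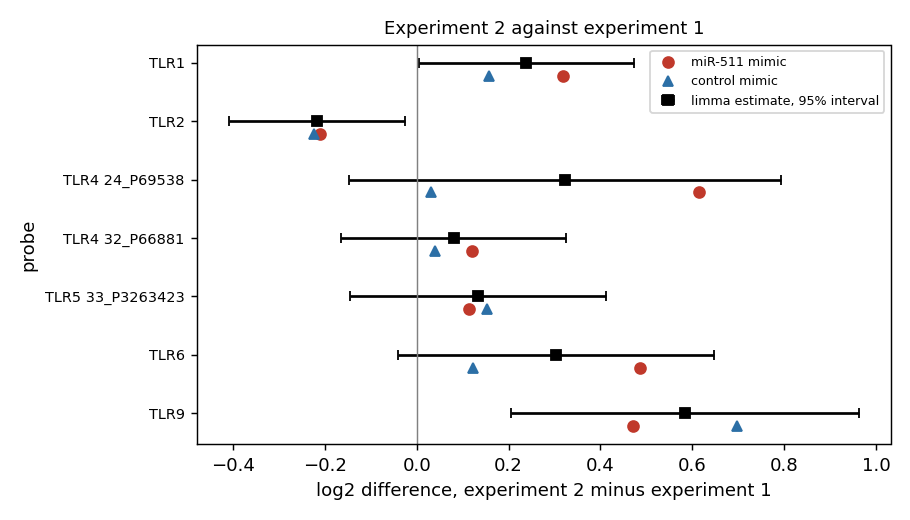
Log2 difference between experiment 2 and experiment 1 for the 7 receptor probes above background. Red circles give the arrays with miR-511 mimic, blue triangles those with the control mimic, and black squares the limma estimate over both with its 95% confidence interval. TLR9 (0.58), TLR1 (0.24) and TLR2 (-0.22) have intervals that exclude 0.

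Receptors need co-receptors and chaperones to reach their ligands. Of 44 genes listed for these functions and for receptor signalling, 43 were matched to 62 probes, and 40 genes had a probe well above background on all 4 arrays. Between the treatments, 0 of 59 tested probes passed the unadjusted threshold in limma, beside 2.20% of all tested probes. Their median log2 difference was -0.016, beside 0.0098 over all tested probes. Higher with miR-511 mimic were 26 of 59, beside 12157 of all 22638 tested probes, and both are read as descriptions. The groups were 6 co-receptors and ligand carriers, 5 chaperones and trafficking factors, 5 endosomal proteases, 5 adaptors, 18 kinases and ubiquitin ligases and 5 inhibitors. LBP, which carries lipopolysaccharide to CD14, was the 1 gene not well above background on any array. It passed the weaker criterion of a signal significantly over the local background on every array but that with miR-511 mimic of experiment 1.

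TLR4 binds lipopolysaccharide together with LY96 (MD-2), after transfer from CD14. CD14 had log2 values of 6.76 with miR-511 and 6.47 with the control mimic in experiment 1 and of 6.85 and 6.81 in experiment 2, with a log2 difference of 0.16 (standard error 0.15). LY96 had 6.82 and 7.17 in experiment 1 and 7.56 and 7.58 in experiment 2. It was lower with miR-511 mimic in both experiments, by -0.18 over both with a standard error of 0.31, and higher in experiment 2 than in experiment 1 by 0.57 (standard error 0.14, unadjusted p = 0.0141, adjusted p = 0.266 in limma).

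UNC93B1, which carries endosomal receptors out of the endoplasmic reticulum, had log2 differences between treatments of 0.024, -0.068 and 0.12 with its 3 probes. HSP90B1 (gp96), a chaperone that many receptors need for folding, had 0.20 and -0.060 with 2 probes, and CNPY3, its cofactor, had -0.14 and -0.078. MYD88, the adaptor of most members, had log2 values of 11.46 with miR-511 and 11.55 with the control mimic in experiment 1 and of 11.35 and 11.40 in experiment 2, and a log2 difference of -0.072 (standard error 0.11). All these genes had an adjusted p of 1.00 in limma. Between the experiments, 9 of 58 tested probes of the list passed the unadjusted threshold (2 higher and 7 lower in experiment 2). This stands beside 14.1% of all tested probes (1280 higher and 1911 lower).

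**Figure D5:**
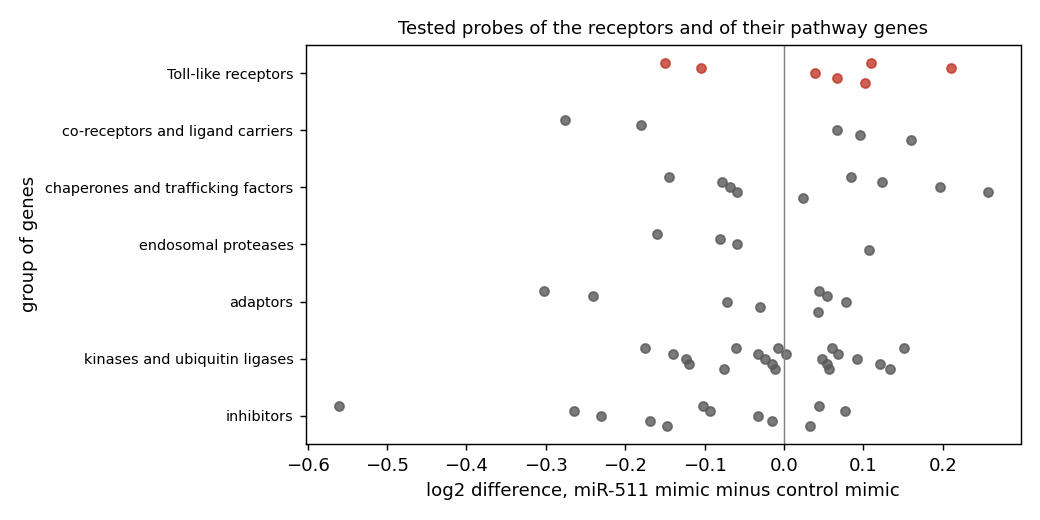
Log2 difference between miR-511 and control mimic of each tested probe, over both experiments, for the receptors (red, 7 probes) and for 6 groups of genes that act with them (grey, 59 probes). Each point is 1 probe, spread vertically only for legibility, and none passed the unadjusted threshold.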

How the data were processed

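The authors hybridized THP1 RNA to Agilent whole genome arrays with 1 dye and deposited 1 scanner file per array. Its processed intensity, made with Agilent Feature Extraction (version 10.5.1.1 in the submitters' processing notes), is background-subtracted, detrended within the array, set to a positive surrogate for spots not above background, and not normalized between arrays. The deposited table of log2 values was an alternative. Probe coordinates and gene names are those of the files (hg19). All 12 receptor accessions matched RefSeq genes of the same name.

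Computation used R 4.3.3, limma 3.58.1 and, for plots, matplotlib. The log2 of the processed intensity of 43118 non-control spots was quantile normalized, without 232 to 301 marked outlier spots per array (0 of them receptor spots), and spots of 1 probe were averaged. No spot was saturated, and 22130 to 23647 probes per array were well above background, which for repeated probes means more than 50% of spots. Surrogate values say nothing of how large a change is. A probe entered the test when none of its 4 values was missing and both arrays of a treatment (or, to compare experiments, of an experiment) were well above background. Tests used lmFit and eBayes, were two-sided and had no block, with Benjamini-Hochberg adjustment over all tested probes. The study's threshold of 0.05 for the unadjusted p of the moderated test was used, without its further t-test over identical replicate probes. An exact permutation test of 2 against 2 arrays cannot go below 0.333.

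The labels number the experiments, which pairs the arrays. Deviations from the treatment means of arrays with the same number had a correlation of 0.271 over probes, and a fit with this number as a block was tried. The arrays lay on 1 slide with 1 scan. On simulated data for miR-511 mimic minus control mimic (22638 probes), a log2 change of 3 was called in 100 of 100 probes at the unadjusted threshold. A change of 1.5 was called in 98 of 100, and 4.62% of unchanged probes were called, whereas 2.20% of the tested probes were called in the data. The simulated noise was independent between arrays and had no effect of experiment. Both changes exceed the largest receptor difference in 1 experiment (0.40), so the simulation does not tell how often changes of that size would be called.

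The receptors and gene lists were chosen with earlier results of these data known. Named were all receptor probes, listed genes past the unadjusted threshold between treatments, and CD14, LY96, UNC93B1, HSP90B1, CNPY3 and MYD88. Alternatives were 75th percentile scaling, normexp (offset 50), marked spots kept, no filter or a stricter one for dim probes, the deposited table, the block, an intensity trend, a plain equal-variance t-test on averaged probes (not the study's t-test over identical replicate probes), other detection rules and leaving out each array. Fits with an array left out used the tested probes of the 4 arrays, and the 2 other filters each tested their own set.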

Additional observations from a re-analysis of the deposited data

Results flagged for a closer look

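For 3 receptor probes, the log2 difference between miR-511 and control mimic had opposite signs in the 2 independent experiments. The difference of experiment 1 minus that of experiment 2 was -0.58 for TLR4 A_24_P69538, -0.36 for TLR6 and -0.16 for TLR1. Each was flagged because the single pair of arrays in one experiment moved one way and the pair in the other moved the opposite way, and with 1 array per treatment in each experiment the difference between the experiments was not tested. Of all tested probes, 51.0% had the same direction in both experiments. The other TLR4 probe, A_32_P66881, was higher with miR-511 mimic in both.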

How the results depend on the processing

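The 7 detected receptor probes were the same number under each other detection rule. Over 9 alternatives that keep all arrays, the 63 log2 differences between treatments kept their direction and did not pass the threshold. The 2 other filters, the block, the intensity trend and the plain t-test leave the difference itself as it is. Direction could thus change only with 75th percentile scaling, normexp, marked spots kept and the deposited table. With 1 array left out in turn, 8 of 28 changed sign: TLR1 ran from -0.092 to 0.23, TLR2 from -0.072 to 0.15, TLR6 from -0.14 to 0.34, TLR9 from -0.14 to 0.56 and TLR4 A_24_P69538 from -0.41 to 0.20. TLR4 A_32_P66881 (0.049 to 0.17) and TLR5 A_33_P3263423 (-0.23 to -0.073) kept theirs. The count of receptor probes past the threshold between treatments was 0 to 1 with an array left out, and that of the listed pathway genes' probes 0 to 4, with 4 without miR-511 mimic replicate 2. Over all probes it was 498, but 265 after normexp, 1029 without a filter, 285 with an intensity trend, 894 with the replicate block, and 516 to 1379 with an array left out, 1379 without miR-511 mimic replicate 2. Between the experiments, 3 receptor probes passed, but 1 after 75th percentile scaling, 1 with treatment as a block, 1 by a plain t-test on averaged probes (TLR2) and 0 to 3 with an array left out. TLR1 also failed after normexp, without a filter and with an intensity trend, and TLR4 A_24_P69538 passed after normexp (0.36). Over all probes the count between experiments was 3191, and 1899 to 3381 with an array left out, 1899 without control mimic replicate 2. The cause of these changes was not tested. No scaling moved the median over all probes by more than 0.1. With 4 arrays, intervals of the receptors remain wide.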
